A study of Mus musculus with 6 samples.

Results

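The transcription factors and deacetylases that carry the response of muscle to loss of its nerve were measured in gastrocnemius, a calf muscle, of mice with and without the kinase TAK1 in skeletal muscle. The set holds 10 of 22180 genes measured and was chosen by gene symbol: the myogenic factors Myog, Myod1 and Myf6, the MEF2 factors Mef2a and Mef2c, the deacetylases Hdac4, Hdac5 and Hdac9, and the regulators Dach2 and Runx1. Per the labels, 3 mice were muscle-specific TAK1 knockouts, examined 3 weeks after deletion, and 3 littermates with floxed TAK1 alleles were controls, so that the groups differed in the deletion while the floxed alleles were also in the controls. RNA of each mouse was hybridised to 1 Affymetrix array, and values are log2 probe set summaries. The labels do not give the promoter that drives the deletion, or the strain, sex or age of the mice, and deletion in muscle leaves TAK1 in the other cells of the tissue. Effects of the agent that made the deletion cannot be told apart from those of the deletion if controls lacked that agent.

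In innervated fibres, electrical activity keeps synaptic genes silent outside the nerve contact, partly through Dach2, which represses the myogenin gene. After denervation of mouse muscle Hdac4 accumulates, Dach2 falls, and myogenin switches on acetylcholine receptor genes and ubiquitin ligases of atrophy. Class IIa histone deacetylases (Hdac4, Hdac5, Hdac7 and Hdac9) act mainly by binding MEF2 factors and blocking them, and they leave the nucleus when calcium-dependent kinases phosphorylate them. These roles come from earlier work in mice and are given as background, not as results.

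The tissue label was checked first. All 8 muscle fibre markers lay above background, taken as 5.85 on the log2 scale, the level that 95% of 1394 smell and pheromone receptor genes did not exceed. Their summed linear signal was 102726 to 104650 in knockout and 105889 to 106341 in control muscle. Map3k7, which encodes TAK1, was at 8.20, 8.28 and 8.17 in knockout and 8.47, 8.32 and 8.42 in control muscle (log2 fold change −0.19, limma adjusted p = 0.69, and exact permutation p = 0.1, two-sided, the smallest that 3 against 3 arrays can give). Which exons were deleted is not in the labels, so these values do not check the deletion, and the arrays are called knockout by their labels. Array medians were 5.78 to 5.84, and Pearson's r across genes, which are not independent replicates, was 0.990 to 0.992 within groups and 0.985 to 0.990 between them. Of the markers of other cells, all 6 tendon genes were lower in knockout muscle, with a median log2 fold change of −0.69 and a summed linear signal of 1096 to 2331 in knockout and 1980 to 3307 in control muscle. Knockout 3 had the lowest tendon sum, 0 of the 6 genes passed the test over all genes, and the part of tendon tissue in the results was not tested. Medians of fibro-adipogenic, Schwann cell, and smooth muscle and pericyte markers were −0.06, 0.01 and 0.06. Knockout 3 also had the lowest summed fibro-adipogenic signal, 5217 against 7061 to 9765 in the other 5 arrays, and it was the highest array for 4 of the 10 genes. None of these marker lists held a gene called over all genes.

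None of the 10 genes differed between knockout and control muscle in the test over all genes. Myog, Myf6, Hdac4, Hdac5 and Runx1 had higher means in knockout muscle, and Myod1, Hdac9, Dach2, Mef2a and Mef2c had lower ones, with log2 fold changes from −0.34 (Myod1) to 0.31 (Runx1). The test was limma's, two-sided, with Benjamini-Hochberg adjustment over 22180 genes and a threshold of 0.05. It called 0 of the 10 genes (adjusted p = 0.65 to 0.99), against 21 of all genes (0.0947%, with 0.0406% higher and 0.0541% lower in knockout muscle), and at an unadjusted p under 0.05 it again held 0 of the 10, against 8.04% of all genes. Each gene's own 95% confidence interval lay between −0.76 and 0.64, so a log2 change of 1 lay outside every one of them on the scale of these arrays. In whole muscle, fewer cells of a type and less RNA per cell cannot be told apart, and neither can a change within fibres and one in other cells.

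**Figure D1:**
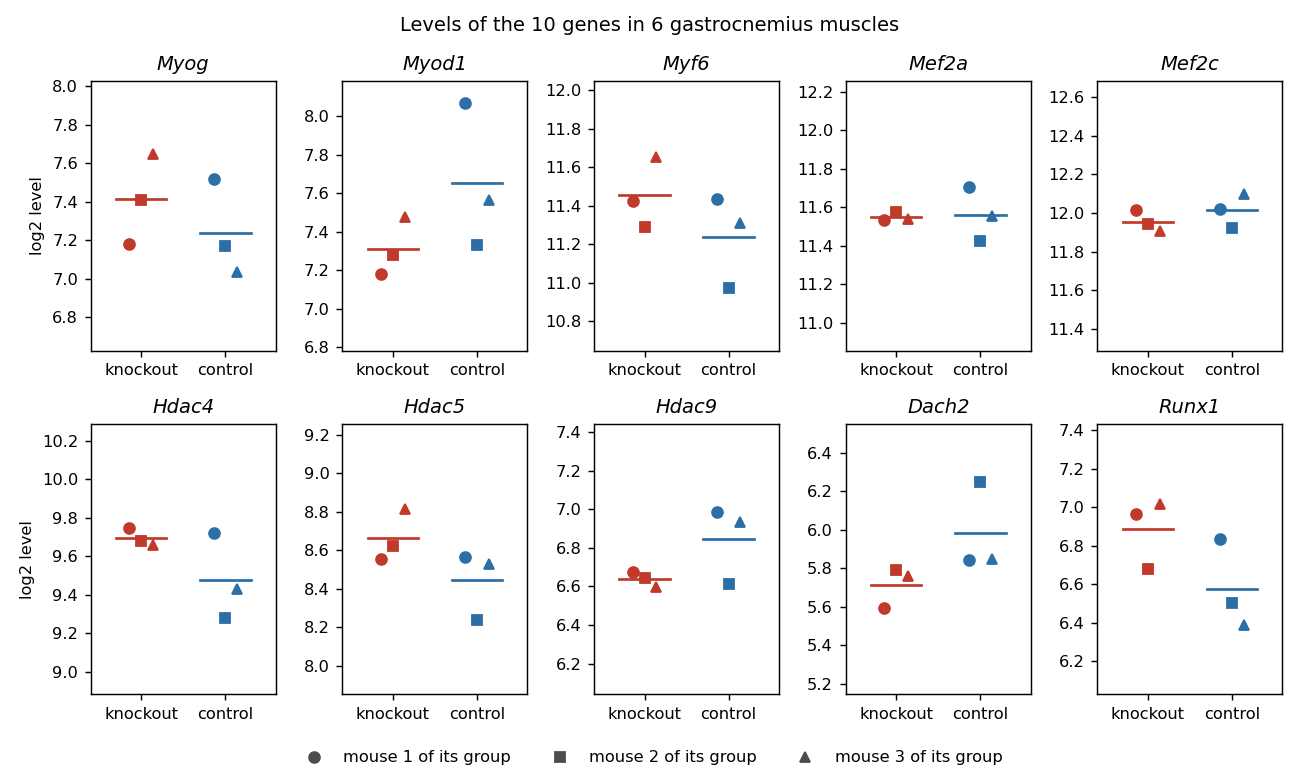
Log2 level of each of the 10 genes (vertical axis, the same span of 1.4 in every panel) in 3 knockout and 3 control muscles; points are single mice, with the marker shape giving the mouse's number in its group, and lines are group means. Dach2 is the gene whose groups do not overlap, and in all 10 panels the control points are spread more widely than the knockout points.

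Myogenic factors are basic helix-loop-helix proteins that bind E-boxes and switch on muscle genes. Myogenin, Myog, which drives the final step of fibre formation and returns after denervation, had log2 levels of 7.18, 7.41 and 7.65 in knockout muscle, against 7.52, 7.17 and 7.04 in control muscle. The groups overlapped, with control 1 above 2 of the 3 knockouts. The means were 7.41 ± 0.23 and 7.24 ± 0.25 (SD, n = 3), a log2 fold change of 0.17 (95% confidence interval −0.19 to 0.54, adjusted p = 0.855, limma). On a linear scale the interval reaches from 0.88-fold to 1.45-fold. Leaving out 1 array moved this value between 0.06 (without knockout 3) and 0.31 (without control 1), and it was 0.07 without control 3 and 0.29 without knockout 1.

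Myod1, the factor that commits cells to the muscle lineage and is also made by activated satellite cells, the stem cells of muscle, had a lower mean in knockout muscle. Its levels were 7.18, 7.28 and 7.47 in knockout and 8.07, 7.33 and 7.57 in control muscle, a log2 fold change of −0.34 (95% confidence interval −0.76 to 0.07, adjusted p = 0.708, limma). Control 1 was the highest of all 6 arrays, and without it the value was −0.14. Satellite cell markers stood beside this: of 7 genes, 5 were lower in knockout muscle, with a median log2 fold change of −0.13, and their summed linear signal was 852.0 to 894 in knockout and 949 to 1026 in control muscle. The largest difference was in Chodl, a membrane lectin, at 6.75, 6.83 and 6.81 in knockout and 7.22, 7.40 and 7.48 in control muscle, without overlap (log2 fold change −0.57, adjusted p = 0.145, limma). The adhesion protein Cdh15 was at 7.41 ± 0.09 and 7.67 ± 0.04, and the stem cell factor Pax7 was at 6.89 and 6.94. In 2 of the 7 markers the groups did not overlap, against 13.4% of all genes. Myf5, the remaining member of the family, was at 6.46 in knockout and 6.44 in control muscle (log2 fold change 0.02, adjusted p = 0.988). Their part in the Myod1 values was not tested, and 0 of the 7 markers passed the test over all genes.

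Myf6 (MRF4), the factor that adult fibres express most steadily, was at 11.43, 11.29 and 11.66 in knockout and 11.43, 10.97 and 11.31 in control muscle. The lowest array was control 2 and the highest knockout 3, and the groups overlapped. Its log2 fold change was 0.22 (95% confidence interval −0.12 to 0.56, adjusted p = 0.786, limma), and it was 0.09 without control 2 and 0.12 without knockout 3.

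The promoter of Myog is shown because it is the point where the pathway is known to act: in mice an E-box and a MEF2 site close to the start are needed for its expression. Printed beside it is the promoter of Chrna1, the gene below myogenin that did rise in knockout muscle. Both are RefSeq sequences of GRCm38.p6, 250 bases before to 50 after the annotated start, read 5′ to 3′ on the gene's strand. Myog lies at chr1:134289754-134290053 on the plus strand and Chrna1 at chr2:73580289-73580588 on the minus strand. Capitals mark matches to the E-box CANNTG, which reads the same on both strands, and to CTANNNNTA on either strand. The latter, called MEF2 core here, is a loose form of the MEF2 motif, which has only A or T at the N positions.
Myog: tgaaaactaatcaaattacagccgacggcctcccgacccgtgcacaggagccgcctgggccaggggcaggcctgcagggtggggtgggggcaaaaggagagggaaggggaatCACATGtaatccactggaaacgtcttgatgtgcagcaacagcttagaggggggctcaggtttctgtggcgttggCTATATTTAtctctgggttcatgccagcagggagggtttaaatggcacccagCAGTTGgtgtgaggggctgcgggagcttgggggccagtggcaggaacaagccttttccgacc
Chrna1: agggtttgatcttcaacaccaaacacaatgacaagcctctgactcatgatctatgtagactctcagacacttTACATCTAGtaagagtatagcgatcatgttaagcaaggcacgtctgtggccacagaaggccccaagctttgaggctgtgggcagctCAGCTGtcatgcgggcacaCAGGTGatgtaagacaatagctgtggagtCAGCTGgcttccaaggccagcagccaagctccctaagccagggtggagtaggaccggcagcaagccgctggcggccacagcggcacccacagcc
The Myog promoter held 2 E-boxes, starting 138 and 12 bases before the annotated start, and 1 MEF2 core 64 bases before it. In Chrna1 there were 3 E-boxes, 92, 73 and 44 bases before the start, and 1 MEF2 core at 178 bases, and no match overlapped another. Among 32851 RefSeq promoters of the same length, 72.3% held an E-box, 21.0% a MEF2 core and 15.7% both. Of the 10 genes, 8 had promoters in the table, with 13 start sites, of which 8 held an E-box and 6 a MEF2 core, and Myod1 and Myf6 had no entry. At the N positions the MEF2 core of Myog has only A or T, while that of Chrna1 does not and so misses the stricter motif. All counts and shares of MEF2 cores are of the loose form. These matches describe letters and were not tested as binding sites.

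MEF2 proteins are the factors on which class IIa deacetylases act. Mef2a was at 11.53, 11.57 and 11.54 in knockout and 11.71, 11.42 and 11.55 in control muscle, and Mef2c, the form most tied to fibre integrity, at 12.01, 11.95 and 11.91 in knockout and 12.02, 11.92 and 12.10 in control muscle. The knockout values of both genes lay almost wholly inside the control range, with knockout 3 just below it for Mef2c. Log2 fold changes were −0.01 for Mef2a (95% confidence interval −0.25 to 0.22) and −0.06 for Mef2c (−0.28 to 0.16), with adjusted p of 0.991 and 0.933 (limma). Another probe set of Mef2c, not used for the gene because its mean was lower, had a log2 fold change of −0.13. Mef2d, a further member of the family, was at 10.29 and 10.36 (log2 fold change −0.08, adjusted p = 0.902). Endothelial cells also express Mef2c: the summed linear signal of 7 endothelial markers was 2725 to 2843 in knockout and 2421 to 3134 in control muscle, with a median log2 fold change of 0.01, and their part was not tested.

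The class IIa deacetylases of the set had differences of like size, higher in knockout muscle for Hdac4 and Hdac5 and lower for Hdac9. Hdac4, which denervation brings to the nucleus, was at 9.74, 9.68 and 9.66 in knockout and 9.72, 9.28 and 9.43 in control muscle. Its knockout values lay close together (SD 0.04, against 0.22 in controls), and control 1 lay among them. Its log2 fold change was 0.22 (95% confidence interval −0.07 to 0.50, adjusted p = 0.744, limma), 0.34 without control 1 and 0.12 without control 2. Hdac5, which shuttles between nucleus and cytoplasm with fibre activity, was at 8.55, 8.62 and 8.81 in knockout and 8.56, 8.24 and 8.53 in control muscle. Here too the groups overlapped through control 1, and the log2 fold change was 0.22 (−0.06 to 0.50, adjusted p = 0.731), and 0.12 without control 2 and 0.15 without knockout 3.

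Hdac9, whose short form MITR lacks the deacetylase domain and which falls after denervation of mouse muscle, was at 6.67, 6.64 and 6.60 in knockout and 6.99, 6.62 and 6.94 in control muscle. Of the controls, 2 lay above every knockout and control 2 lay among them. The log2 fold change was −0.21 (95% confidence interval −0.48 to 0.06, adjusted p = 0.739, limma), −0.32 without control 2 and −0.14 without control 1. The array does not report splice forms separately in these summaries. Hdac7, the class IIa form of vessels and lymphocytes, was at 6.95 and 7.02 (log2 fold change −0.07, adjusted p = 0.912).

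Dach2, the corepressor that holds myogenin down in innervated muscle, was the 1 gene of the 10 whose groups did not overlap, a share of 10% where 13.4% of all genes had that separation (6.65% lower in knockout muscle). It was at 5.59, 5.79 and 5.76 in knockout and 5.84, 6.25 and 5.85 in control muscle. The gap was narrow, 2 controls lying just above the highest knockout, and every knockout value and 2 of the controls lay at or below the background level of 5.85. Its log2 fold change was −0.27 (95% confidence interval −0.57 to 0.04, adjusted p = 0.675, limma), and −0.13 without control 2. Dach1, a relative of Dach2, was at 6.29 and 6.18 (log2 fold change 0.11, adjusted p = 0.855).

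Runx1, a transcription factor that denervated mouse fibres induce and need to keep their structure, had the largest positive difference of the 10. Its levels were 6.96, 6.68 and 7.02 in knockout and 6.83, 6.50 and 6.39 in control muscle. Control 1 lay above knockout 2, so the groups overlapped. The log2 fold change was 0.31 (95% confidence interval −0.02 to 0.64, adjusted p = 0.646, limma) and lay between 0.22 and 0.44 when 1 array was left out. White blood cells also make Runx1: 10 of their markers had a median log2 fold change of −0.04, with 4 higher and 6 lower, and a summed linear signal of 1273 to 1719 in knockout and 1251 to 1600 in control muscle. Their part in the Runx1 values was not tested.

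**Figure D2:**
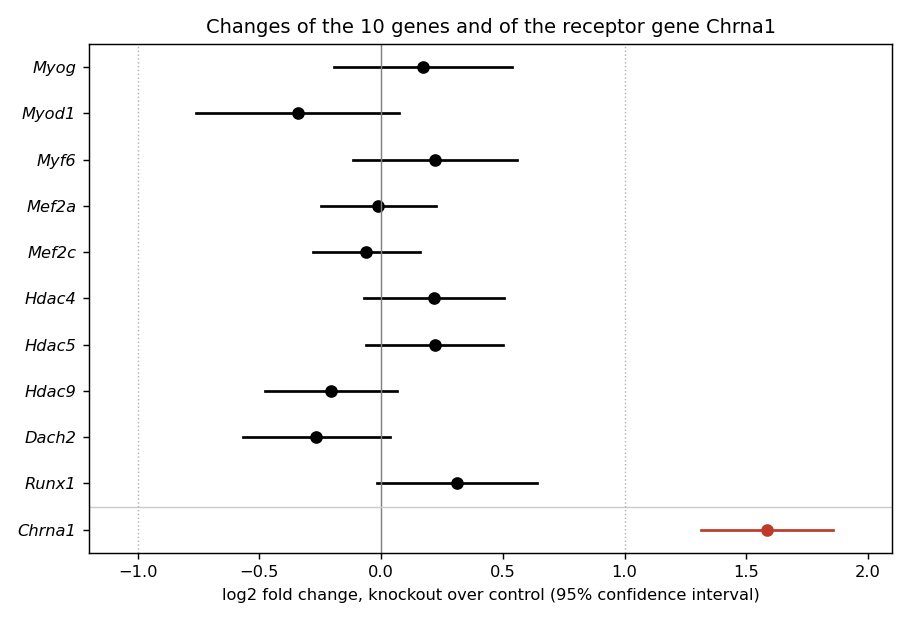
Log2 fold change of knockout over control (horizontal axis) with 95% confidence intervals from limma for the 10 genes and, below the line, for the receptor gene Chrna1; dotted lines mark changes of −1 and 1. All 10 intervals include 0 and none reaches −1 or 1, while the interval of Chrna1 runs from 1.31 to 1.85.

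Sizes of change were larger than for a typical gene although none was called. The median absolute log2 fold change of the 10 genes was 0.22, against 0.10 for all genes tested, and the median signed change was 0.08, against −0.0003. Myod1 lay at percentile 94.1 of all genes by absolute change, Runx1 at 92.5, Dach2 at 89.0 and Mef2a at 6.9. The 10 genes also shared a spread that the rule did not use: in 10 of 10 the knockout SD was below the control SD, against 50.6% of all genes, with median SDs of 0.12 in knockout and 0.23 in control muscle, where all genes had 0.131 and 0.133. Control 1 was the highest control for 8 of the 10 genes and control 2 the lowest for 7. The genes come from the same 6 arrays and vary together, so these counts are descriptions of 6 mice.

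Under the 14 alternatives run, 0 of the 10 genes passed. The lowest adjusted p was 0.439 for Runx1, and 9 genes kept the sign of their change throughout, Mef2a being the exception. That lowest value came from testing above-median genes alone. Some genes reached an unadjusted p under 0.05 (limma) in single alternatives. For Runx1 it was 0.0125 without control 1 (adjusted p = 0.553) and 0.0260 without knockout 2. It was 0.0465 with array weights, 0.0487 with median centring and 0.049995 with the trend and robust prior. Hdac4 reached 0.0164 without control 1 (adjusted p = 0.578). Without control 2, Hdac9 reached 0.0155 (adjusted p = 0.479) and Myod1 0.0211 (adjusted p = 0.517). Control 1 and control 2 were the highest and the lowest of their group for most of the 10 genes.

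**Figure D3:**
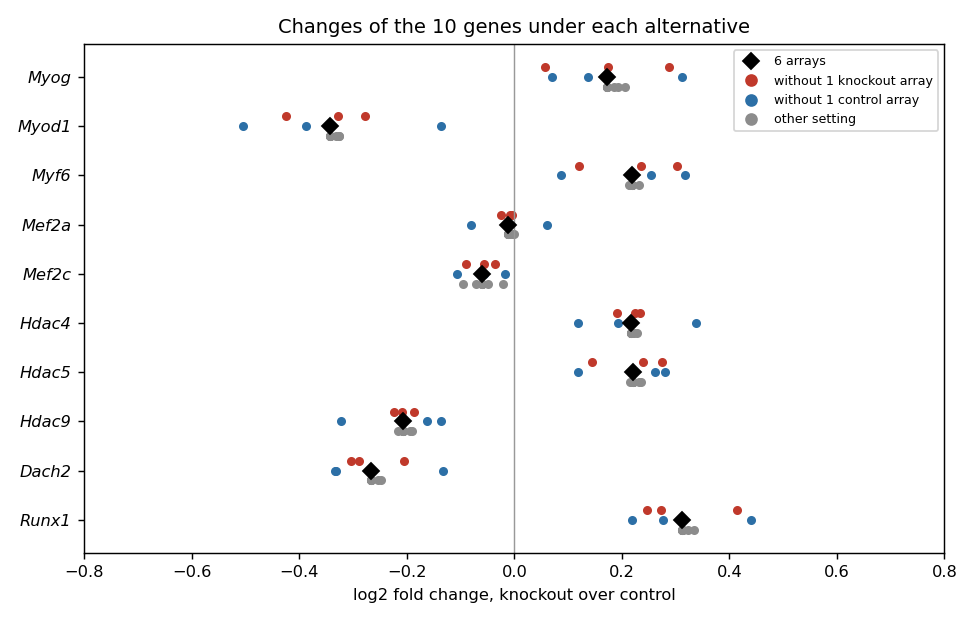
Log2 fold change of knockout over control (horizontal axis) of each of the 10 genes with all 6 arrays (diamonds), without 1 knockout array, without 1 control array and under other settings of normalization, gene choice or variance model (circles). Leaving out control 1 or control 2 moves most genes further than any other setting, and Mef2a alone crosses 0.

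Genes that act below Hdac4 and myogenin were compared next, as a list of 18, of which 16 were measured. Chrna1, a subunit of the acetylcholine receptor that binds the transmitter, was the 1 gene of the list called higher (0.0406% of all genes were), 0 were called lower and 15 did not pass. It was at 10.45, 10.15 and 10.13 in knockout and 8.77, 8.65 and 8.57 in control muscle, a gap wider than 1 between the closest arrays (log2 fold change 1.58, SE 0.12, adjusted p = 0.00565, limma). In the same arrays its log2 change exceeded that of Myog by 1.41, and those of the other 9 genes by 1.27 (Runx1) to 1.93 (Myod1). For each of the 10 genes the 3 knockout differences lay above all 3 control differences, and the exact permutation p was 0.1, two-sided, the smallest that the design can give, and 0.1 after adjustment over the 10. This comparison was chosen after the values were seen. Chrna1 was taken because it had passed the test, with a gap wider than the change of any of the 10 genes. The separation was therefore all but set by that choice, and these p-values add no further evidence.

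Among the other genes of that list, the groups did not overlap in 4 more that were higher and 1 that was lower, which with Chrna1 makes 6 of 16, against 13.4% of all genes. Ampd3, an AMP deaminase that rises in atrophy, was at 9.15 ± 0.55 in knockout and 8.05 ± 0.23 in control muscle (SD, n = 3; adjusted p = 0.247, limma). The receptor subunit Chrnb1 was at 9.25 ± 0.19 and 8.48 ± 0.27 (adjusted p = 0.196), and the synaptic kinase Musk at 8.84 ± 0.24 and 8.10 ± 0.37 (adjusted p = 0.326). Embryonic myosin Myh3, which regenerating fibres make, was the lower one, at 5.79 ± 0.22 and 6.63 ± 0.24 (adjusted p = 0.146), with its knockout mean below background. By direction the list was even, with 8 higher and 8 lower. At an unadjusted p under 0.05 (limma) it held 6 of its 16 genes, against 8.04% of all genes. The median log2 fold change of the list was 0.03, which was 0.19 without knockout 1 and 0.01 without knockout 3. The atrophy ligases Fbxo32 and Trim63, named here after their values were seen, were at 12.10 and 11.95, and at 11.30 and 11.30, in knockout and control muscle.

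**Figure D4:**
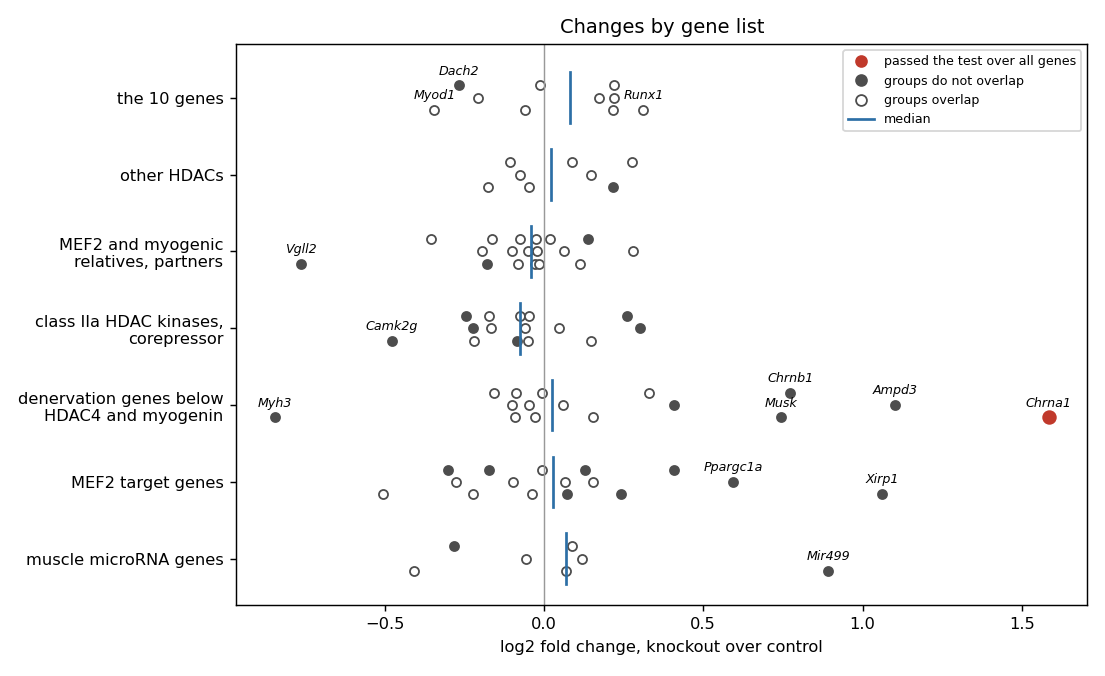
Log2 fold change of knockout over control (horizontal axis) for each measured gene of the 10-gene set and of 6 related lists; red points passed the test over all genes, filled points had groups that do not overlap, open points had groups that do, and blue bars are list medians. Chrna1 at 1.58 is the sole red point, and the 10 genes of the set lie between −0.34 and 0.31.

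MEF2 target genes were also mixed. Of 16 measured, 0 passed the test over all genes, 5 were at an unadjusted p under 0.05 (8.04% of all genes were), and the groups did not overlap in 8 (13.4% of all genes), of which 6 were higher (6.74% of all genes were) and 2 lower. Xirp1, an actin-binding protein of fibre repair and cell junctions, was at 10.30, 11.04 and 11.48 in knockout and 10.10, 9.90 and 9.63 in control muscle (log2 fold change 1.06, adjusted p = 0.301, limma). For the coactivator Ppargc1a the log2 fold change was 0.59 (adjusted p = 0.351) and for the small heat shock protein Hspb7 it was 0.41 (adjusted p = 0.244). On the lower side stood Stac3, an adaptor of excitation-contraction coupling, with −0.30 (adjusted p = 0.534), and Xirp2, a relative of Xirp1, with −0.17. The median of the list was 0.03, and it was −0.05 without knockout 3 and likewise −0.05 without control 3.

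Kinases and a corepressor partner of class IIa deacetylases had more lower than higher members and no call. Of 15 measured genes 0 passed, 4 were at an unadjusted p under 0.05 (8.04% of all genes were), 11 were lower and 4 higher, and the median log2 fold change was −0.08. That median was −0.03 without knockout 2 and −0.13 without control 2. Camk2g, a calcium/calmodulin kinase, was at 10.18, 10.15 and 10.20 in knockout and 10.86, 10.46 and 10.64 in control muscle, without overlap (log2 fold change −0.48, adjusted p = 0.284, limma). Its knockout values were tightly grouped and all control values lay above them. Mark2 and Camk1, both kinases that can phosphorylate these deacetylases, had log2 fold changes of −0.24 and −0.22. Prkaa1, a catalytic subunit of AMP-activated kinase, and the salt-inducible kinase Sik2 lay higher, at 0.30 and 0.26. In 6 of the 15 genes the groups did not overlap, against 13.4% of all genes.

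Relatives and partners of the MEF2 and myogenic factors numbered 18 measured genes, with 0 called, 5 higher and 13 lower, and a median log2 fold change of −0.04. Without control 1 the list had 10 higher and 8 lower genes and a median of 0.03, and without knockout 1 the median was −0.11. Vgll2, a skeletal muscle cofactor of TEAD transcription factors, had the largest difference of the list. It was at 8.84, 9.21 and 9.42 in knockout and 10.16, 9.77 and 9.82 in control muscle, all knockouts below all controls (log2 fold change −0.76, adjusted p = 0.233, limma). Id3, an inhibitor that sequesters the partners of myogenic factors, had a log2 fold change of −0.18, and Msc (musculin), a repressor of the same class of proteins, one of 0.14, also without overlap. In 3 of the 18 genes the groups did not overlap, a share of 16.7%, near the 13.4% of all genes. At an unadjusted p under 0.05 (limma) the list held 1 gene of 18, where 8.04% of all genes were. Of 8 deacetylases outside the set, 0 were called, 4 were higher and 4 lower, with a median of 0.02, which was −0.07 without knockout 1 and 0.09 without knockout 2. Among them Hdac8, a class I deacetylase, was the 1 of 8 whose groups did not overlap, a share near the 13.4% of all genes, at 7.24 ± 0.15 in knockout and 7.03 ± 0.08 in control muscle (SD, n = 3; adjusted p = 0.688, limma).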

How the data were processed

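RNA of 6 gastrocnemius muscles was measured on 1 Affymetrix array each. The deposited values are log2 probe set summaries, for which the submitters' processing notes name oligo, limma and RMA; no version or order is given in the sources used here. The RMA step makes the arrays' intensity distributions alike and compresses differences of dim transcripts. Scan dates were not used, so batches were not tested, and with 3 arrays a group the precision is limited throughout. Each array was taken as a separate mouse, from titles that number the samples within each group and do not name mice.

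Of 41345 rows, 23521 had 1 gene symbol in the platform annotation of GEO (possibly outdated), 1814 had several and 16010 none. Entrez identifiers of 23328 of the single-symbol rows were found in the RefSeq table of GRCm38.p6, and 0 symbols differed. The row with the highest mean over 6 arrays represented a gene, which left 22180 genes, and Mef2c was the 1 gene of the 10 with several rows. Knockout and control were compared with limma 3.58.1 (lmFit and eBayes, default settings) in R 4.3.3, with no filter on dim genes. Exact permutation tests and plots were made in Python 3.11.15 with matplotlib 3.10.9.

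The 10 genes, the 6 related lists and the marker lists were chosen with earlier results of these data known. Text names all 10 genes, Map3k7, fixed relatives and, per related list, called genes and otherwise up to 3 in each direction with the largest change among genes whose groups do not overlap and whose higher mean exceeds background; other genes are examples chosen after their values were seen. Listed genes without a row of their own were not analysed here.

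In 10 simulations of knockout against control with known changes in 200 of 22180 genes, limma found 55% of the 1.5-fold and 99% of the 2-fold changes, while 7.43% of calls were false. The simulated noise was normal and independent between genes. It was drawn at variances that limma had already moved toward a common value, so it lacked the full spread of variances between genes. The 200 planted changes, some of them 4-fold, also ease the adjusted threshold, so these shares can overstate recovery in the real arrays. There Ampd3, at 2.15-fold, did not pass (adjusted p = 0.247, limma). Alternatives tried were median centring, quantile normalization, the mean over rows, every row, above-median genes, an intensity trend with robust prior, array weights, a replicate block, and leaving out each array.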

Additional observations from a re-analysis of the deposited data

How the results depend on the processing

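The number of genes called was 21 with all arrays. It was 6 with every row tested, 53 with above-median genes only, 36 with an intensity trend and robust prior, and 2 to 11 when 1 array was left out. It stayed within 1.5 times of 21 under quantile normalization, median centring, the mean over rows, array weights and the replicate block. Of the 10 genes, 0 were called under all 14 alternatives, and Dach2 had no value among above-median genes. Mef2a changed sign under median centring (2.9e-05) and without control 1 (0.0603), its values without 1 array running from −0.0806 to 0.0603. The median of the 10 genes ran from 0.003 to 0.17. Without 1 array, the list below Hdac4 and myogenin had medians of 0.0102 to 0.195, MEF2 targets −0.0549 to 0.0460 and microRNA genes −0.185 to 0.150, relatives and partners −0.114 to 0.0336, other deacetylases −0.0673 to 0.0945 and kinases with a corepressor partner −0.129 to −0.0317, and the cause was not tested. Chrna1 passed in all 14 alternatives (adjusted p = 0.00165 to 0.0421), and its change exceeded that of Myog by 1.19 to 1.58, a comparison added after seeing the data.

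Replicate numbers 1 to 3 occur in both groups, but no label says that they pair mice. Deviations of same-numbered arrays correlated at 0.08, 0.21 and −0.07, and 3 of 6 arrays correlated best with their own number. With the replicate number as a block 17 genes were called, again 0 of the 10. Low signal limits Dach2, whose mean lay below background in knockout muscle (5.71) and above it in control muscle (5.98). It also limits 3 of the 7 microRNA genes, whose means lay below background in both groups.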

Other observations

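MicroRNA genes of muscle touch the same pathway, since miR-206 is known in mice to repress Hdac4. Of 7 measured, 0 passed the test over all genes, 4 were higher and 3 lower in knockout muscle, with a median log2 fold change of 0.07, and 4 had a mean above background. The groups did not overlap in 2 of the 7 (13.4% of all genes had that separation). At an unadjusted p under 0.05 (limma) there were 2 of the 7, where 8.04% of all genes were. Mir206 was at 2.42, 2.29 and 2.52 in knockout and 2.17, 2.44 and 2.35 in control muscle, far below the background level of 5.85, so these arrays give no measure of it. Mir499 was at 4.52, 4.92 and 4.42 in knockout and 3.74, 3.48 and 3.96 in control muscle, without overlap, but every value lay below background (log2 fold change 0.89, limma adjusted p = 0.151). The other microRNA gene without overlap, Mir208b, was lower and also below background, at 2.31, 2.41 and 2.50 in knockout and 2.52, 2.88 and 2.67 in control muscle (log2 fold change −0.28, limma adjusted p = 0.606). Both were named after their values were seen.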
